A study of Homo sapiens with 12 samples.

Results

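The comparison was between SW480 and HCT116, both established human colorectal cancer cell lines, in their vector controls alone, and it asked how the lines differ when USP51, the deubiquitinase gene of the series, is not overexpressed. Per the labels, SW480 with the NC genotype and vector treatment was set against HCT116 with the same genotype and treatment, and no other allele or agent is named for either. Both lines were cultured in DMEM medium with 10% fetal bovine serum in air with 5% CO2, and the RNA was total RNA. The labels give 12 libraries in 4 groups of 3, the other groups being the same lines with USP51 overexpressed. The values used were the authors' mean for each group, named by line and by a letter C or E. The letters were read as control and as USP51 overexpression. USP51 itself stood at 0.513 TPM (transcripts scaled to length and library size) in SW480 controls and 0 in HCT116 controls, against 25.7 and 40.8 TPM in the overexpressing groups. The labels do not say whether the 3 libraries of a group came from separate cultures or whether a line was 1 clone. Each line is 1 cell line, so a difference is between these lines and not between classes of colorectal tumour.

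Genes were taken into the comparison when the mean of at least 1 of the control groups reached 1 TPM. That left 13034 of the 17818 genes in the table. The control means summed to 15625249 estimated counts for SW480 and 15823540 for HCT116. A mean carries no spread, so no standard deviation, n or p-value accompanies any value, and whether a difference exceeded the spread between the libraries was not tested. Each ratio was taken between counts divided by the group's total, and the range in parentheses after it is its 95% exact interval, which holds counting error alone.

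As background, SW480 carries truncating mutation of APC and HCT116 an activating mutation of beta-catenin. APC is the scaffold on which beta-catenin is marked for destruction, and beta-catenin is the co-activator that switches on WNT target genes in the intestinal crypt. Neither mutation was read from these data.

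The lines shared most of their transcriptome and differed in a large minority of it. On the scale of log2((SW480 TPM + 1) / (HCT116 TPM + 1)), 6561 genes (50.3%) lay within 1.5-fold of each other. At least 2-fold higher in SW480 were 1741 genes (13.4%), and at least 2-fold higher in HCT116 were 1914 genes (14.7%). These shares are the background against which each group of genes below is read. The 2-fold limit is a rule of size, not a test, and this scale makes differences between low values look smaller than they are. At 4-fold the counts were 628 (4.82%) and 553 (4.24%), and at 16-fold they were 159 and 76. The median difference over all genes was -0.08. At least 1 TPM was reached in both lines by 11176 genes, in SW480 alone by 875 and in HCT116 alone by 983.

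Genes silent in one line and clearly expressed in the other were a small part of the comparison. A mean count that rounds to 0 was found in HCT116 for 257 of the genes, 67 of them at 10 TPM or more in SW480. The reverse held for 140 genes, 37 of them at 10 TPM or more in HCT116. At the limit of 1 TPM, the genes just inside were DRAXIN (0.463 TPM in SW480, 1 TPM in HCT116) and H3C11 (1 and 0 TPM). Just outside were TMPRSS2 (0.997 and 0.01 TPM) and TRIM10 (0.893 and 0.997 TPM).

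**Figure D1:**
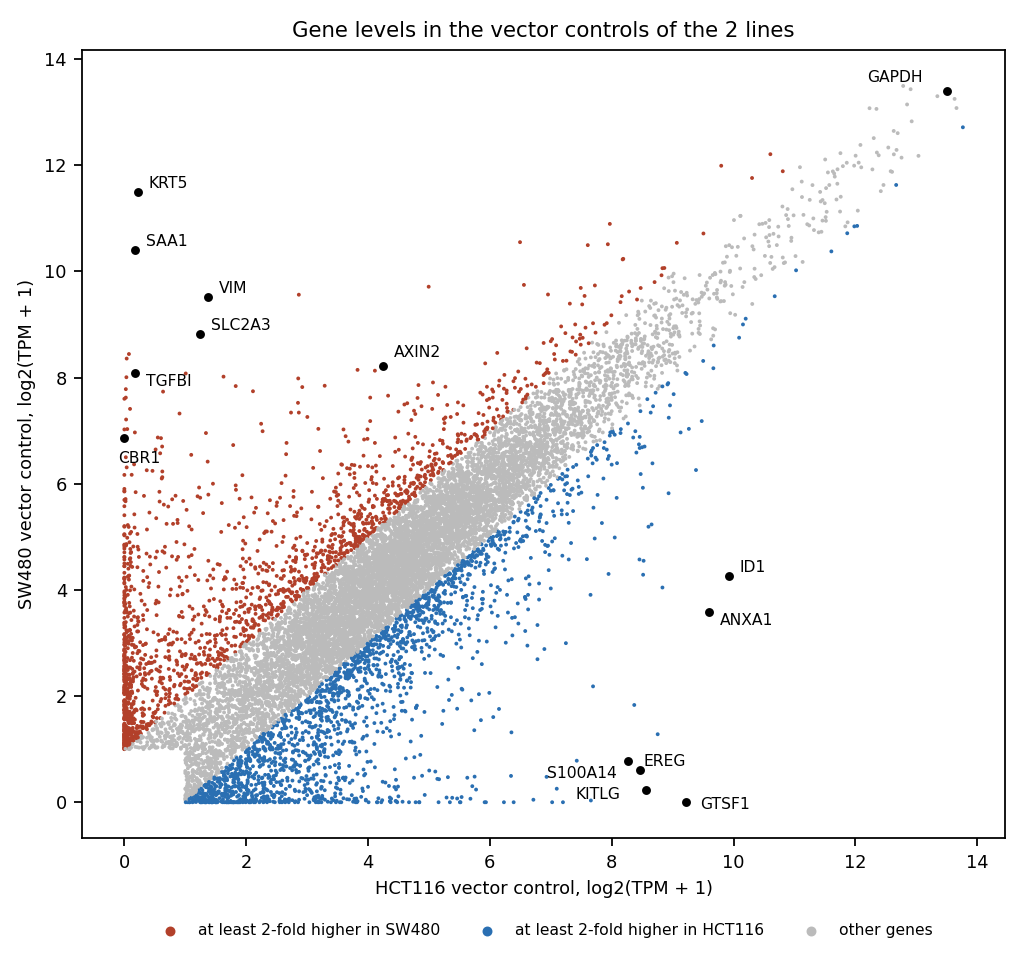
Each point is 1 of 13034 genes, with its level in HCT116 vector controls on the x axis and in SW480 vector controls on the y axis, both as log2(TPM + 1) of the authors' means. Red points (1741) are at least 2-fold higher in SW480 and blue points (1914) at least 2-fold higher in HCT116. GAPDH lies on the diagonal, and KRT5, SAA1, GTSF1 and KITLG lie at its far sides.

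The largest difference of all was that of KRT5, the basal epithelial keratin that pairs with KRT14 in stratified epithelium. KRT5 (NCBI gene 3852, chromosome 12, 52514575 to 52520394, GRCh38) reached 2871 TPM in SW480, where it ranked 54th among all genes by TPM, against 0.163 TPM in HCT116. Its 59000 mean counts against 3.33 gave a ratio of 19916 (6815 to 96579). In the USP51 groups of the same lines it stood at 2200 and 0.15 TPM. KRT5 was thus abundant in both SW480 means and close to 0 in both HCT116 means. SAA1, an acute-phase serum amyloid gene, came next at 1352 TPM in SW480 and 0.13 TPM in HCT116, although its reads can pass to its near-identical copy SAA2. Against a mean of under 1 count, SAA1 was at least 1179-fold higher in SW480 at a floor of 3 counts in the HCT116 mean. The WNT inhibitor gene APCDD1 (327 and 0.0267 TPM), the cystatin gene CST7 (347 and 0.0533 TPM), the matrix gene TGFBI (270.1 and 0.13 TPM) and the insulin-like growth factor binding protein gene IGFBP4 (219 and 0.0167 TPM) followed in the same direction.

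Among genes with no count in HCT116, the most abundant in SW480 included GJB1, which encodes a gap junction connexin, at 129 TPM. It was at least 682-fold higher at the same floor. The chemokine gene CCL2 stood at 117 TPM (at least 191-fold) and the carbonyl reductase gene CBR1 at 115 TPM (at least 380.4-fold). These genes belong to different families, and each was detected in the SW480 mean alone.

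In HCT116 the largest difference was that of GTSF1, a germline factor of the piRNA pathway that guards against transposons. GTSF1 (NCBI gene 121355, chromosome 12, 54455957 to 54473602) had no count in SW480 controls and stood at 598 TPM in HCT116, at least 1091-fold higher. In the USP51 groups it stood at 0.29 and 568 TPM. KITLG, the ligand of the KIT receptor, was at 0.167 TPM in SW480 and 379 TPM in HCT116, a ratio of 2259 in favour of HCT116 (1190 to 4941). S100A14, a calcium-binding protein gene of epithelia, was at 0.533 and 353 TPM (ratio 716, 279 to 2630). ABCC2, which encodes an apical efflux pump for conjugated drugs and bilirubin, was at 0.0333 and 104 TPM (ratio 2958, 819 to 24435). All of these were near 0 in SW480 and among the well-expressed genes of HCT116. Genes with no count in SW480 also included IL18, the interleukin gene (82.9 TPM, at least 241-fold), and PDE4B, a cyclic AMP phosphodiesterase gene (60.2 TPM, at least 729.6-fold).

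The splicing factor gene U2AF1 would rank among the largest differences in favour of HCT116 at 0.72 and 171 TPM, but it has a near-identical copy and its value is uncertain. At the other end, some highly abundant genes were alike, and the first 3 named here were chosen for being so. GAPDH, a glycolysis enzyme gene, stood at 10828 and 11601 TPM. The actin-binding thymosin gene TMSB10 stood at 10081 and 10411 TPM, and RPL13A, a ribosomal protein gene, at 4234 and 4253 TPM. Other abundant genes were not alike, such as RPS2, also a ribosomal protein gene, at 6717 and 13918 TPM.

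Markers of epithelium were present in both lines, and markers of other cell types were nearly absent. All 6 epithelial markers were measured, and their summed level was 11047 TPM in SW480 and 6312 TPM in HCT116. EPCAM, the epithelial adhesion molecule, was at 382 and 411 TPM. Of 6 intestinal markers 2 reached 1 TPM, CDX2 (29.1 and 10.7 TPM), the transcription factor of intestinal fate, and VIL1 (7.55 and 0.03 TPM), the villin of the brush border. CDH17, the intestinal cadherin, was at 0 in both lines, and CDX1, GPA33 and LGALS4 were under 1 TPM, so the label of colon cells was carried by few of its defining markers. Fibroblast markers summed to 1.78 TPM in SW480 and 10.1 TPM in HCT116, nearly all of it COL1A1 (1.58 and 9.95 TPM), with COL1A2 and DCN at 0 in both. Leukocyte markers summed to 6.38 and 8.15 TPM with PTPRC, the pan-leukocyte antigen, at 0 in both, and endothelial markers to 0.313 and 0.267 TPM. In these bulk samples, fewer cells with a transcript and less transcript per cell cannot be told apart.

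Genes of epithelial adhesion and polarity were more often higher in HCT116, and several were near silent in SW480. Of 30 measured members, 14 were at least 2-fold higher in HCT116 and 3 in SW480, with a median difference of -0.73 beside -0.08 for all genes. RAB25, a small GTPase that returns membrane proteins to the apical surface, was at 0.193 TPM in SW480 and 136 TPM in HCT116, on 1.67 and 1177 mean counts. PRSS8, the membrane serine protease prostasin, was at 0.06 and 40.7 TPM. GRHL2, the transcription factor that maintains epithelial gene expression, had no count in SW480 and stood at 15.1 TPM in HCT116, at least 251-fold higher. These members separate the lines almost completely, and their levels in the USP51 groups were alike, with RAB25 at 0.183 and 129 TPM and GRHL2 at 0 and 14.7 TPM.

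Other members differed in degree. CDH1, which encodes E-cadherin of the adherens junction, was at 9.4 and 33.4 TPM (ratio 3.54 in favour of HCT116, 3.18 to 3.94). The desmosome genes were uneven: DSG2 stood at 17.6 and 95.4 TPM and DSC2 at 1.38 and 28.3 TPM, while DSP stood at 60.1 and 58.3 TPM. ESRP1, the splicing regulator of epithelial isoforms, was at 23.3 and 101 TPM, and its paralog ESRP2 at 26.5 and 27 TPM. Among the exceptions higher in SW480 was PKP2, a desmosomal plakophilin, at 42.1 and 13.8 TPM. Among tight junction claudins, 3 of 13 were higher in each line. CLDN1 was at 15.1 TPM in SW480 and 0.12 TPM in HCT116, and CLDN4 was close in both at 139 and 145 TPM.

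The window just before the start of RAB25 is shown because its level separates the lines so sharply and because it holds the letters CACCTG, the E-box that repressors of the SNAI and ZEB families bind. It lies at chr1:156060910-156061159 on the plus strand (GRCh38.p14, from RefSeq), 5′ to 3′, with the E-box in capitals.
RAB25: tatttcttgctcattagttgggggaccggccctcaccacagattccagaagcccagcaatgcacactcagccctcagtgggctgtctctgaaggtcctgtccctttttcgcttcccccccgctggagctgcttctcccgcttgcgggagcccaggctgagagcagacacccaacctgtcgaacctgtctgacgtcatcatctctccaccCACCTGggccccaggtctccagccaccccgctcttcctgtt

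Over promoters of 300 bases (250 before and 50 after the start, both strands searched), CACCTG was found in 19% of the 10598 genes with a window. Of the 14 epithelial adhesion genes higher in HCT116, 7 had a window, and 5 of those held the letters. Of the other members 6 had a window, and 3 of those held them. A match is a description of the letters and shows no binding.

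The E-box repressors themselves were not uniformly higher in either line. ZEB1, a repressor of CDH1, was at 4.33 TPM in SW480 and 0.913 TPM in HCT116 (ratio 4.79, 3.57 to 6.53). SNAI2 was at 2.77 and 0.38 TPM, whereas SNAI1 was at 11.5 and 27.2 TPM. These 3 repressors thus did not share a direction. Of 7 measured members of the list of these transcription factors, 3 were higher in each line.

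Mesenchymal and matrix genes were more often higher in SW480, at 11 of 24 members against 3 in HCT116, with a median of 0.69. The counts were 7 and 4 and the median 0.11 in the USP51 groups, so the direction of the list was weaker there. VIM, the intermediate filament vimentin of mesenchymal cells (NCBI gene 7431, chromosome 10, 17228241 to 17237593), reached 732 TPM in SW480 and 1.58 TPM in HCT116, a ratio of 459.9 (316 to 698). It stood at 731 and 2.28 TPM in the USP51 groups, so it was high in both SW480 means and low in both HCT116 means. The basement membrane collagen gene COL4A2 was at 10.9 and 0.0267 TPM. FN1, which encodes fibronectin, was at 25.5 and 6.59 TPM. The direction was not shared by COL6A2, another collagen gene, at 0.397 TPM in SW480 and 52.8 TPM in HCT116 (ratio 131 in favour of HCT116, 76.4 to 247). The fibroblast markers did not move with the list, since COL1A1 was lower in SW480 and COL1A2 and DCN were at 0. CDH13, a cadherin gene outside this list, was at 20.8 TPM in SW480 against no count in HCT116. Of 5 measured cadherins, 1 was at least 2-fold higher in SW480 and 3 in HCT116.

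Keratins were an SW480 group beyond KRT5. Of 17 members, 10 were at least 2-fold higher in SW480 and 2 in HCT116, with a median of 1.08 (8 and 1 in the USP51 groups). KRT23 was at 837 and 30.9 TPM, and KRT13, a keratin of stratified mucosa, at 126 and 3.82 TPM. KRT18, the keratin of simple epithelia, was at 4727 and 1556 TPM. In the other direction KRT7, of ductal epithelia, was at 1.2 and 12 TPM. The simple-epithelium keratin KRT19 was close in both lines at 1421 and 1268 TPM. KRT5 thus stood beside abundant simple keratins in SW480 and did not replace them.

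**Figure D2:**
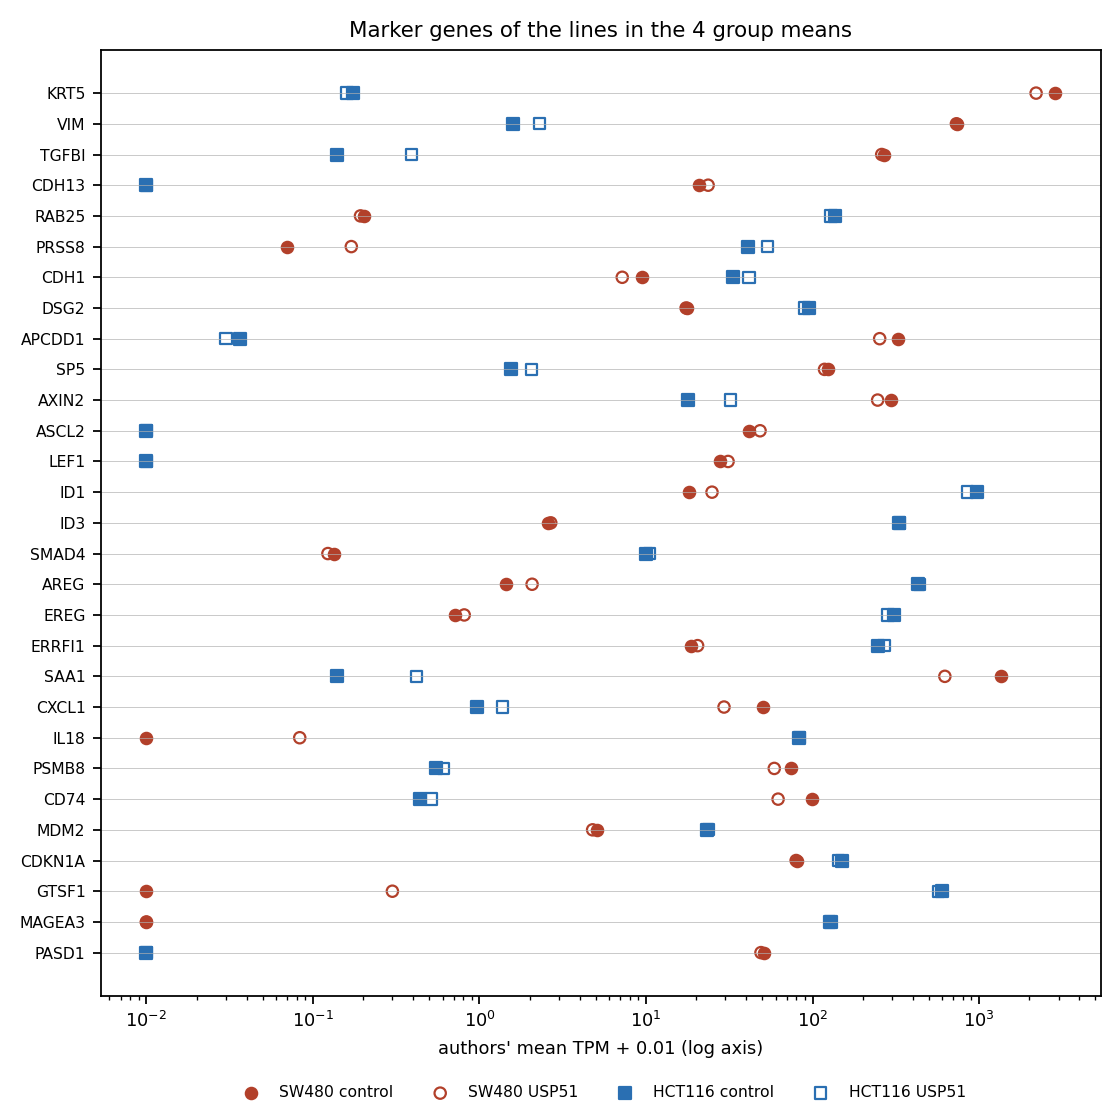
Each row is 1 gene that marks a difference between the lines, with the authors' mean TPM + 0.01 on a log axis. Circles are SW480 and squares HCT116, filled for vector controls and open for the USP51 groups. For every gene shown the filled and open symbols of a line lie closer to each other than to those of the other line.

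Intestinal identity was thin in both lines and differed in kind. Of 20 measured intestinal transcription factors, 7 were at least 2-fold higher in HCT116 and 3 in SW480. CDX2 was 2.8-fold higher in SW480 by counts (2.47 to 3.17). VDR, the vitamin D receptor, was at 56.4 and 10.1 TPM. TCF7L2, the main intestinal partner of beta-catenin, was at 10.4 and 69 TPM, and GATA6, a factor of gut endoderm, at 0.08 and 4.1 TPM. HNF4A, a regulator of enterocyte genes, was at 5.56 and 3.96 TPM.

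Of 37 listed genes of differentiated colonocytes and enterocytes, 29 were found among the genes of the data. Of these, 10 reached 1 TPM in either line, 5 of them at least 2-fold higher in HCT116 and 3 in SW480. CA2, a carbonic anhydrase of surface colonocytes, was at 0.05 and 43.1 TPM. Of 27 goblet cell and mucin genes, 24 were found and 6 were measured. MUC2, the main goblet cell mucin, was at 0.02 and 0.01 TPM. Of 31 listed genes of endocrine and neural cells, 26 were found and 10 were measured. Of those 10, 6 were at least 2-fold higher in SW480 and 2 in HCT116. CHGA (0.157 and 0.0233 TPM) and NEUROD1 (0 and 0.0267 TPM) were under 1 TPM in both lines. NGFR, the low-affinity nerve growth factor receptor, was at 161 and 6.28 TPM, and UCHL1, a neuronal deubiquitinase, at 9.1 TPM against no count. SCG2, a secretory granule protein gene, went the other way, with no count in SW480 and 13.1 TPM in HCT116.

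WNT target and stem cell genes were more often higher in SW480. Of 28 members, 13 were at least 2-fold higher in SW480 and 5 in HCT116, with a median of 0.64 (12 and 7 in the USP51 groups). AXIN2, a negative feedback inhibitor of the WNT pathway and its common readout, was at 297 TPM in SW480 and 17.9 TPM in HCT116 (ratio 16.6, 15.4 to 17.9). In the USP51 groups AXIN2 stood at 246 and 32.3 TPM. SP5, a transcription factor that WNT signals induce, was at 123 and 1.53 TPM (ratio 84.4, 58.6 to 126). NKD1, another feedback inhibitor, was at 42.6 and 1.45 TPM. The crypt stem cell factor ASCL2 and the beta-catenin partner LEF1 were at 41.4 and 27.9 TPM in SW480 and had no count in HCT116. LGR5, the crypt stem cell receptor, was under 1 TPM in both lines at 0.2 and 0.0467 TPM. AXIN2, SP5, NKD1 and the crypt factor ASCL2 were thus high in SW480 without LGR5. RNF43, also a member of the list, was close in both lines at 74 and 68.9 TPM.

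Members of the list in the other direction included SOX4, a transcription factor, at 6.73 and 97.1 TPM. PROM1, which encodes the surface antigen CD133, was at 0.0233 and 14.6 TPM. DKK1, a secreted WNT antagonist, was at 8.35 and 94.7 TPM. Of the pathway core, CTNNB1, the gene of beta-catenin, was at 392 and 179 TPM (ratio 2.23, 2.16 to 2.3). APC was at 8.21 and 8.55 TPM (ratio 0.966, 0.881 to 1.06), so the level of its mRNA did not separate the lines.

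The upstream window of SP5, second in the list to APCDD1 by log2 difference, is shown because it holds CTTTGAT, letters that TCF and LEF factors bind. It lies at chr2:170715087-170715336 on the plus strand (GRCh38.p14, from RefSeq), 5′ to 3′, with those letters in capitals.
SP5: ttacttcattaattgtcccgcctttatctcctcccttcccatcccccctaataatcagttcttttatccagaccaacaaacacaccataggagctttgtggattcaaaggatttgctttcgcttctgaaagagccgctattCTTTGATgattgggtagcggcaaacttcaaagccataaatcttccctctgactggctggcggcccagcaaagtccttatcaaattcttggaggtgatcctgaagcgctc

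CTTTGAT was found in 1.4% of all promoter windows. Among the WNT target genes higher in SW480, SP5 was the 1 of 7 with a window that held it.

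WNT ligands and secreted antagonists divided between the lines. Of 33 measured ligands, receptors and antagonists, 13 were at least 2-fold higher in SW480 and 7 in HCT116, and in the USP51 groups 8 and 6 were. WNT5A, a ligand that mostly acts without beta-catenin, was at 49.9 and 0.0133 TPM, on 2962 and 0.667 mean counts. WNT6 was at 84.4 and 1.58 TPM and WNT10A at 25 and 0.577 TPM. WNT16 was the main ligand in the other direction, at 1.92 and 56.8 TPM. Among antagonists, SFRP5 was at 56.8 TPM against no count and DKK3 at 20.6 and 0.0933 TPM, opposite to DKK1. The receptor subunit LRP6 was close at 7.76 and 7.51 TPM.

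TGF-beta and BMP signalling genes divided as well, with 8 of 34 members higher in SW480 and 10 in HCT116. The list's median was -0.37, but it was 0.27 among members with at least 5 TPM, so no direction is given for the list. The BMP targets ID1 and ID3, inhibitors of basic helix-loop-helix factors, were far higher in HCT116. ID1 was at 18.1 and 968 TPM (ratio 51.9 in favour of HCT116, 43.9 to 61.7) and ID3 at 2.56 and 329.9 TPM (ratio 128, 80.9 to 217). Their paralog ID2 was at 447 and 178 TPM, higher in SW480. The ligands divided in the same way, with BMP4 at 82.5 and 406 TPM and BMP7 at 93.1 and 5.3 TPM. SMAD4, the shared partner of the receptor-activated SMAD proteins, was at 0.123 TPM in SW480 and 10 TPM in HCT116, on 11.3 and 897 mean counts (ratio 80.5 in favour of HCT116, 44.8 to 162). The inhibitory SMAD7 was at 16.9 and 5.97 TPM, and the decoy receptor gene BAMBI, also a WNT target, at 163 and 21.6 TPM. In the Notch pathway 5 of 20 members were higher in each line. The receptor NOTCH3 was at 0.08 and 10 TPM, the ligand DLL3 at 9.79 and 0.0833 TPM, and the target HES1 at 175 and 28.4 TPM.

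Some ligands of the EGF receptor family were far higher in HCT116. Of 13 measured ligands, receptors and feedback inhibitors, 5 were at least 2-fold higher in HCT116 and 1 in SW480. AREG, the ligand amphiregulin, was at 1.43 TPM in SW480 and 431 TPM in HCT116 (ratio 307 in favour of HCT116, 183 to 561). EREG, the ligand epiregulin, was at 0.703 and 307 TPM (ratio 433, 307 to 634). TGFA, a further ligand, was equal at 24.1 TPM in each, and HBEGF was at 8.21 and 8.95 TPM. EGFR, the receptor, was at 27.5 and 24.9 TPM (ratio 1.12, 1.06 to 1.19), and ERBB2 at 26.5 and 40.6 TPM (ratio 1.53 in favour of HCT116, 1.42 to 1.65). Feedback inhibitors of the receptor went in opposite directions, with ERRFI1 at 18.7 and 246 TPM and LRIG1 at 32.6 and 3.91 TPM. AREG and EREG thus differed widely, and these receptors by less than 2-fold.

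Other receptor tyrosine kinase genes gave 6 of 25 members higher in SW480 and 8 in HCT116, against 3 and 9 in the USP51 groups. MET, the receptor of hepatocyte growth factor, was at 7.03 and 75.7 TPM. NTRK2, a neurotrophin receptor, was at 7.04 and 0.0333 TPM, higher in SW480. Genes that report ERK activity gave 7 of 34 members higher in SW480 and 5 in HCT116, near the background shares in the latter. ETV4, a transcription factor that ERK signalling induces, was at 212 and 65.5 TPM, while PHLDA1 was at 25.2 and 119 TPM. FOS was close at 597 and 595 TPM.

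Inflammatory genes that NF-kB controls were the list most one-sided towards SW480 among lists with at least 10 measured members. Of 33 measured members, 22 were at least 2-fold higher in SW480 and 1 in HCT116, with a median of 1.97. The list holds the near-identical copies SAA1 and SAA2. In the USP51 groups the counts were 21 and 1. The neutrophil chemokine genes were among them, with CXCL1 at 50.1 and 0.953 TPM (ratio 52.9, 27.6 to 116) and CXCL2 at 23.8 and 0.72 TPM. IL32, a cytokine gene, was at 92.3 and 1.14 TPM (ratio 93.5, 42.7 to 256). The granulocyte growth factor gene CSF2 was at 39.8 and 0.437 TPM on 212 and 2.33 mean counts. LCN2, an iron-binding antimicrobial protein gene, was at 161 and 5.66 TPM. ICAM1, the leukocyte adhesion receptor, was at 97.1 and 8.27 TPM. The member higher in HCT116 was IL18. Leukocyte markers did not go with the list, with PTPRC at 0 and summed levels of 6.38 and 8.15 TPM. RELA, an NF-kB subunit, was at 80.7 and 77.1 TPM (ratio 1.05, 0.986 to 1.12), and RELB, another subunit of the family, at 25.9 and 6.06 TPM.

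Windows upstream of CXCL1, CXCL2 and IL32 are shown because these genes differed strongly and each holds 2 matches to the NF-kB letters GGNNTTTCC. The first lies at chr4:73869143-73869392 on the plus strand, the second at chr4:74099196-74099445 on the minus strand and the third at chr16:3065153-3065402 on the plus strand (GRCh38.p14, from RefSeq). Each is written 5′ to 3′ in the gene's direction, with the matches in capitals.
CXCL1: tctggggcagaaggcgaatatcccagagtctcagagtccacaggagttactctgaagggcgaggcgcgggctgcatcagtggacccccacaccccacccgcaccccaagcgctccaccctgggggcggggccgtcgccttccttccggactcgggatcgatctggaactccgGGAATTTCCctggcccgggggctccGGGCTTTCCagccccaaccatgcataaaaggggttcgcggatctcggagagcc
CXCL2: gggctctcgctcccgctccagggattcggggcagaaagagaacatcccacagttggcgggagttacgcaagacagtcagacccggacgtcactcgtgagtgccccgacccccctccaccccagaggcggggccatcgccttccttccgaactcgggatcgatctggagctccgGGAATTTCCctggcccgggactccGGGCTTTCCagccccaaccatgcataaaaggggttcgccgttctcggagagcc
IL32: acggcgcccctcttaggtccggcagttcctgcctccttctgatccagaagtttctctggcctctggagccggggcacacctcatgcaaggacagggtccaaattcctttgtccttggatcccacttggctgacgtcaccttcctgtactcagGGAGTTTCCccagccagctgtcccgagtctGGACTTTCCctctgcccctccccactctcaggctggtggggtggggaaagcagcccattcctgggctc

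GGNNTTTCC was found in 6.58% of all promoter windows. Of the 22 members of the inflammatory list higher in SW480, 17 had a window, and 12 of those held the letters. Of the other members 6 had a window, and 2 of those held them. The list was composed of known NF-kB genes, CXCL1 and CXCL2 are related copies, and the matches are therefore no independent evidence. What the windows show is that the letters stand close together in each, within the last part of the window before the start.

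Antigen presentation genes were partly higher in SW480. Of 20 members of the class I pathway, 6 were at least 2-fold higher in SW480 and 0 in HCT116. The immunoproteasome gene PSMB8 was at 74.1 and 0.54 TPM (ratio 119, 54.3 to 325), and TAPBPL, a peptide editor gene, at 12.2 and 0.26 TPM. B2M, the class I light chain, was at 436 and 305 TPM, under 2-fold. CD74, the chaperone of class II molecules, was at 99.1 and 0.427 TPM. Class II HLA genes are highly similar to each other, and the median of the 7 measured class II members was 0.38 in the controls but -1.27 in the USP51 groups, so no direction is given for that list. Interferon-stimulated genes divided, with 11 of 33 higher in SW480 and 7 in HCT116, against 8 and 9 in the USP51 groups. BST2, the virion tether tetherin, was at 35.7 and 1.09 TPM and IFI27 at 51.6 and 2.71 TPM, whereas HERC5, the ligase for ISG15, was at 0.58 and 7.22 TPM.

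**Figure D3:**
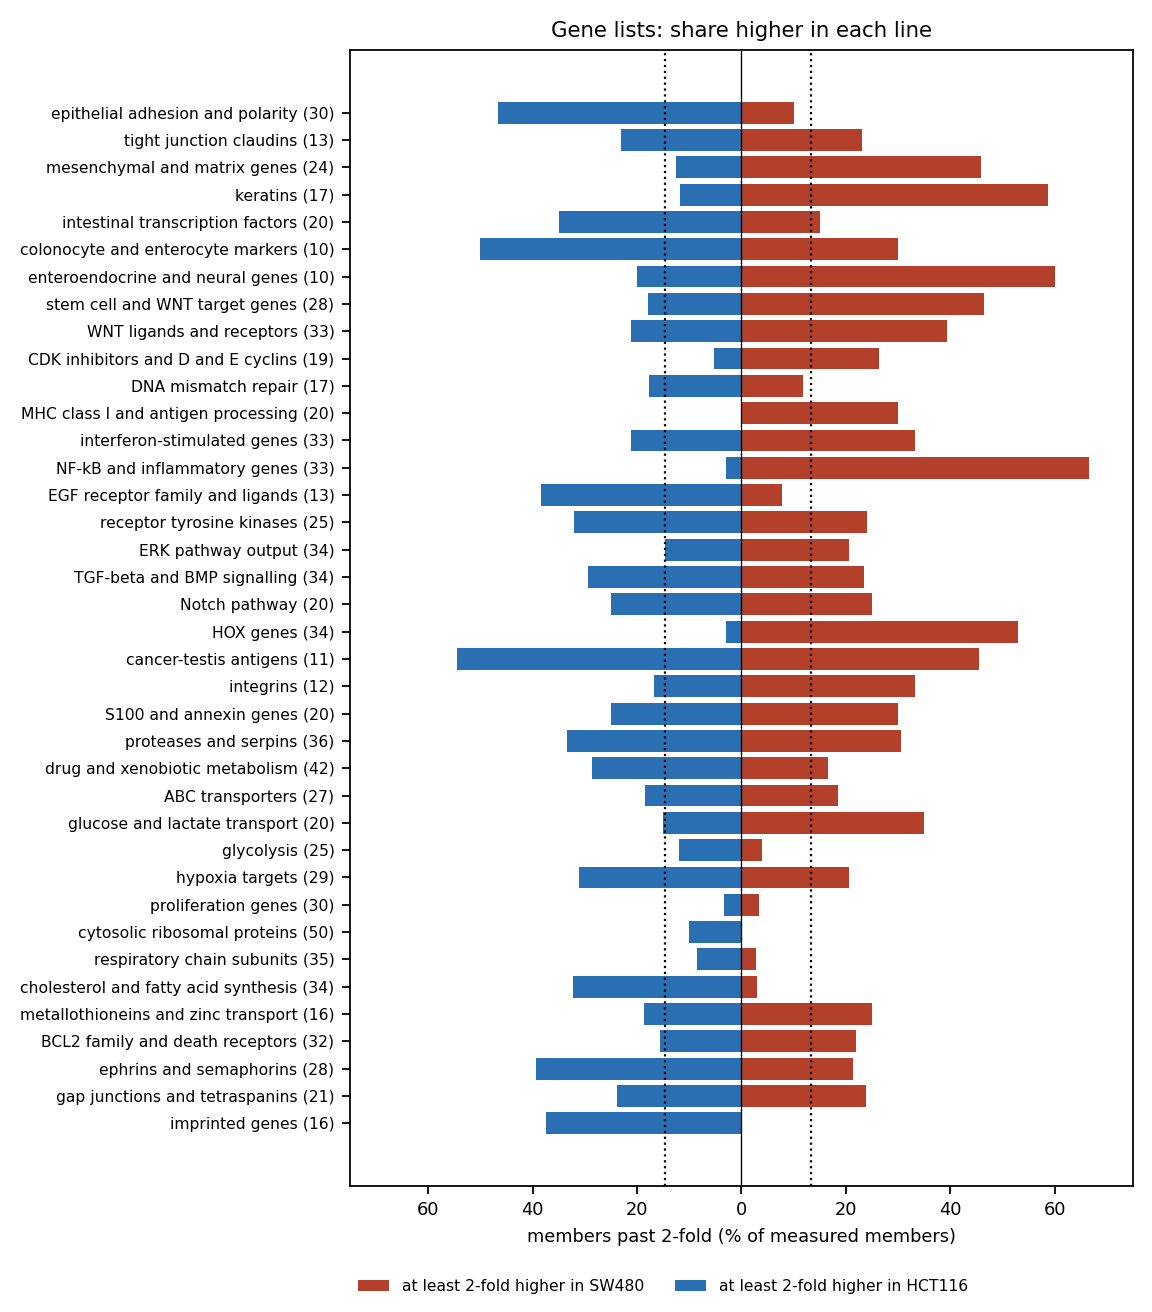
Each bar is the share of a gene list's measured members (number in brackets) that were at least 2-fold higher in SW480 (red, to the right) or in HCT116 (blue, to the left). Dotted lines mark the same shares over all 13034 genes, 13.4% and 14.7%. NF-kB and inflammatory genes reach furthest to the right and proliferation genes stay short of both lines.

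Single genes known to be induced by DNA damage or stress were examined next. MDM2, a ubiquitin ligase gene, was at 5.09 and 23.3 TPM (ratio 4.56 in favour of HCT116, 4.08 to 5.1). GDF15, a stress-induced cytokine, was at 30.3 and 210.0 TPM, and FDXR, a mitochondrial reductase, at 19.2 and 65 TPM. CDKN1A, the p21 inhibitor of cyclin-dependent kinases, was at 80.9 and 150.0 TPM (ratio 1.84, 1.73 to 1.96), short of 2-fold. PHLDA3, an inhibitor of AKT, was higher in SW480 at 98.7 and 21.7 TPM, and so was SULF2, a heparan sulfatase gene, at 46.3 and 8.1 TPM.

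Cell cycle regulators differed by member. The list of 19 held cyclins, kinase inhibitors, the kinase gene CDK6 and the retinoblastoma family genes RB1 and RBL1. Of these, 5 were higher in SW480 and 1 in HCT116, against 3 and 2 in the USP51 groups. The 5 included RB1 (49.5 and 24.1 TPM) and RBL1 (20 and 9.17 TPM), both under 2-fold in the USP51 groups. CCND1, the WNT- and ERK-responsive cyclin D1, was at 671 and 158 TPM, and CCND2 at 7.32 and 0.0167 TPM. CCNE1, the cyclin of S-phase entry, was at 12.1 and 48.2 TPM. Proliferation genes were mostly within 2-fold, with 1 of 30 higher in each line, and 0 and 1 in the USP51 groups. TOP2A, the topoisomerase of dividing cells, was at 215 and 76.5 TPM, MCM5, a replication helicase subunit, at 67.2 and 138 TPM, and MKI67 at 103 and 123 TPM.

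In DNA mismatch repair and related genes, 2 of 17 members were higher in SW480 and 3 in HCT116. MSH3, which recognises longer loops, was at 10.3 and 1.63 TPM (ratio 6.3, 4.9 to 8.2). PMS2, another repair gene, was at 28.2 and 22.9 TPM. MGMT, the enzyme that repairs alkylated guanine, was at 8.61 and 20.2 TPM, higher in HCT116.

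HOX genes, which record position along the body axis, were higher in SW480 in most clusters. Of 34 measured members, 18 were at least 2-fold higher in SW480 and 1 in HCT116, with a median of 1.11. The HOXB cluster differed most widely, with 7 of 9 members higher in SW480, and its summed level was 537 TPM against 149.7 TPM. HOXB2 was at 53.3 and 1.3 TPM, HOXB3 at 49.1 and 4.68 TPM and HOXB6 at 90.8 and 17.3 TPM. At the posterior end of the same cluster HOXB13, a marker of the distal gut, was close at 6.13 and 8.7 TPM. In the HOXD cluster 4 of 6 members were higher in SW480, with HOXD9 at 6.47 and 0.04 TPM, but the summed levels were only 21.4 and 8.34 TPM. The HOXA cluster differed least, with 3 of 11 members higher in SW480 and sums of 180.3 and 172 TPM. HOXC lay between, at 4 of 8 members and sums of 84.7 and 41.9 TPM.

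Cancer-testis antigens, germline genes that tumours re-express, divided between the lines. Of 11 measured members, 5 were at least 2-fold higher in SW480 and the other 6 in HCT116, and in the USP51 groups 3 and 6 were. PASD1 stood at 50.8 TPM in SW480 (at least 515-fold) and MAGEC2 at 13.4 TPM (at least 81.1-fold), both with no count in HCT116. MAGEB2 stood at 201 TPM and PRAME at 33.4 TPM in HCT116, against 0.0233 and 0.493 TPM in SW480. MAGEA2, MAGEA3 and MAGEA6 were also detected in HCT116 alone, but they are near-identical copies whose reads can pass between them. The list of imprinted genes gave 0 of 16 members higher in SW480 and 6 in HCT116. Its members include RNF4, which is not an imprinted gene and was close at 60.5 and 61.1 TPM. The neighbours SGCE and PEG10 had 0.01 and 0 TPM in SW480 but 21.1 and 12.9 TPM in HCT116.

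Both main glucose transporter genes were higher in SW480. SLC2A3, the high-affinity glucose transporter GLUT3, was at 449 and 1.37 TPM (ratio 332, 252 to 446). SLC2A1, the general transporter GLUT1, was at 824 and 179 TPM (ratio 4.64, 4.51 to 4.77). Of 20 glucose and lactate transporters and regulators, 7 were higher in SW480 and 3 in HCT116. Of 25 glycolysis genes, 1 was higher in SW480 and 3 in HCT116 (0 and 4 in the USP51 groups), among them ALDOC, an aldolase, at 9.31 and 87.5 TPM. Hypoxia targets divided, with 6 of 29 higher in SW480 and 9 in HCT116. BNIP3, a mitophagy receptor, was at 0.233 and 51.4 TPM, and PLOD2, a collagen lysyl hydroxylase, at 0.237 and 19.3 TPM. The oxygen-regulated subunit HIF1A was at 81.5 and 85 TPM, and its paralog EPAS1 at 116 and 20.8 TPM.

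Lipid synthesis genes were more often higher in HCT116, at 11 of 34 members against 1 in SW480, with a median of -0.48 (12 and 0 in the USP51 groups). SCD, the stearoyl-CoA desaturase, was at 144 and 712 TPM (ratio 4.9 in favour of HCT116, 4.78 to 5.03). FASN, the fatty acid synthase, was at 103 and 371 TPM, and FDFT1, the squalene synthase, at 95.1 and 338 TPM. DHCR7, a late enzyme of cholesterol synthesis, was close at 148 and 142 TPM. Respiratory chain subunits were mostly alike, with 1 of 35 higher in SW480 and 3 in HCT116. Ribosomal protein genes gave 0 of 50 higher in SW480 and 5 in HCT116 (0 and 2 in the USP51 groups), with RPL22L1 at 37.3 and 228 TPM.

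Drug metabolism genes gave 7 of 42 members higher in SW480 and 12 in HCT116. GSTT1, a glutathione transferase, was at 57.2 TPM in SW480 and had no count in HCT116 (at least 144-fold). AKR1B1, an aldose reductase, was at 0.41 and 80.4 TPM (ratio 183 in favour of HCT116, 78.3 to 566), and MGST1, a microsomal glutathione transferase, at 36.6 and 402 TPM. GSTP1, the most abundant transferase, was close at 2140 and 2268 TPM. Among 27 ABC transporters 5 were higher in each line. ABCB1, the efflux pump P-glycoprotein, was at 7.41 and 0.917 TPM (ratio 8.1, 5.91 to 11.4), opposite to ABCC2.

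Among calcium- and membrane-binding proteins, ANXA1, an annexin that dampens inflammation, was at 11 and 769.8 TPM (ratio 69.3 in favour of HCT116, 58.3 to 83). S100A11 was at 4065 and 889 TPM and S100A6 at 1853 and 4179 TPM, so abundant family members went in opposite directions. Ephrins and semaphorins, guidance cues of cell contact, gave 6 of 28 members higher in SW480 and 11 in HCT116. Ephrin ligands went in opposite directions, with EFNB1 at 196 and 15.4 TPM and EFNB2 at 2.25 and 29.4 TPM. NRP1, a semaphorin and VEGF co-receptor, was at 17.8 and 0.863 TPM. Genes of cell death gave 7 of 32 higher in SW480 and 5 in HCT116, and GSDME, a gasdermin that opens pores after caspase cleavage, was at 0.09 and 8.08 TPM.

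Position on the chromosomes, which played no part in choosing the genes, went with the direction of the difference. On chromosome 18, the HCT116 level was at least 2-fold the higher for 71 of 168 genes (42.3%), with a median of -0.73, and on chromosome 8, 31.8% were, with a median of -0.67. At the other end, chromosome X had a share of 26.8% at least 2-fold higher in SW480 (median 0.49), chromosome 7 had 25.1% (median 0.46) and chromosome 20 had 24.2% (median 0.49). In the USP51 groups the medians of chromosomes 18, 8, 7 and 20 were -0.82, -0.74, 0.44 and 0.47. Medians nearer 0 did not all keep their sign. That of chromosome 3 was 0.13 in the controls and -0.17 in the USP51 groups. DNA copy number was not measured in these samples and its part in the pattern was not tested.

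**Figure D4:**
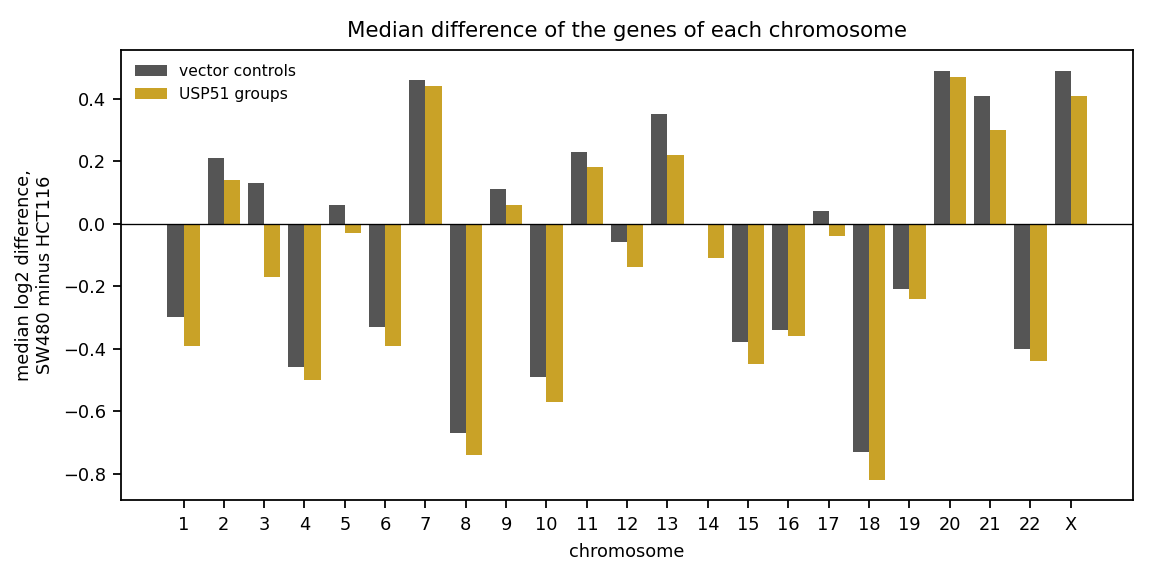
Bars are the median log2 difference, SW480 minus HCT116, of the genes of each chromosome, for the vector controls (grey) and for the USP51 groups (gold). Chromosomes 18 and 8 have the lowest medians, at -0.73 and -0.67 in the controls, and chromosomes 20 and X the highest, at 0.49.

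The difference on chromosome 18 was not spread over its whole length. In windows of 20 Mb, the median was 0.26 from 0 to 20 Mb, where 3 of 44 genes were higher in HCT116. It was -1.04 from 20 to 40 Mb (24 of 45 genes higher in HCT116) and -1.11 from 40 to 60 Mb (26 of 47). From 60 to 80 Mb, 15 of 29 genes were higher in HCT116. APCDD1, one of the genes most in favour of SW480, lies in the first window at 10454635 to 10489949. A run of 16 consecutive genes of the comparison, from TRAPPC8 to MOCOS (31829197 to 36272157), was higher in HCT116 throughout, and SMAD4 lies in another run of 5 (50282347 to 51085042). On chromosome 11, a run of 9 genes at 5253188 to 5685074 that holds fetal and embryonic globin genes, olfactory receptor genes, TRIM5 and TRIM6 was higher in HCT116. Neighbours of KRT5 shared its direction, with 7 keratin genes in a row higher in SW480 on chromosome 12 (52274645 to 52573843), although KRT6A and KRT6B and also KRT81 and KRT86 are near-identical copies.

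Promoter composition was described for genes that separated the lines and genes that did not. The ratio of observed to expected CpG in the 300-base window was above 0.6 in 82.7% of all genes with a window and in 87.7% of those within 1.5-fold. It was above 0.6 in 61.5% of genes at least 4-fold higher in SW480 and 68.2% of those at least 4-fold higher in HCT116. Among genes with no count in HCT116 or in SW480 the shares were 53.2% and 57.3%. The shares were thus lower in the sets of genes that separated the lines, in either direction. Level was not matched between these sets, and its part was not tested.

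The USP51 groups gave a second pair of means for the same lines that shares no library with the controls. Of the 1741 genes higher in SW480 controls, 1369 (78.6%) were at least 2-fold higher in SW480 in that pair too, and 1735 had the same sign. Of the 1914 genes higher in HCT116, 1753 (91.6%) were 2-fold higher again and 1911 had the same sign. The background in that pair was 11.4% higher in SW480 and 17.2% higher in HCT116. Of genes past 4-fold in the controls, 627 of 628 and 553 of 553 were past 2-fold in the same direction. The genes past 2-fold in opposite directions numbered 2, and both were singled out with their values known. They were EIF3CL, a near-identical copy of another gene (5.47 and 14 TPM in controls, 28.9 and 10.2 TPM with USP51), and a locus without a symbol that had under 2 mean counts.

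**Figure D5:**
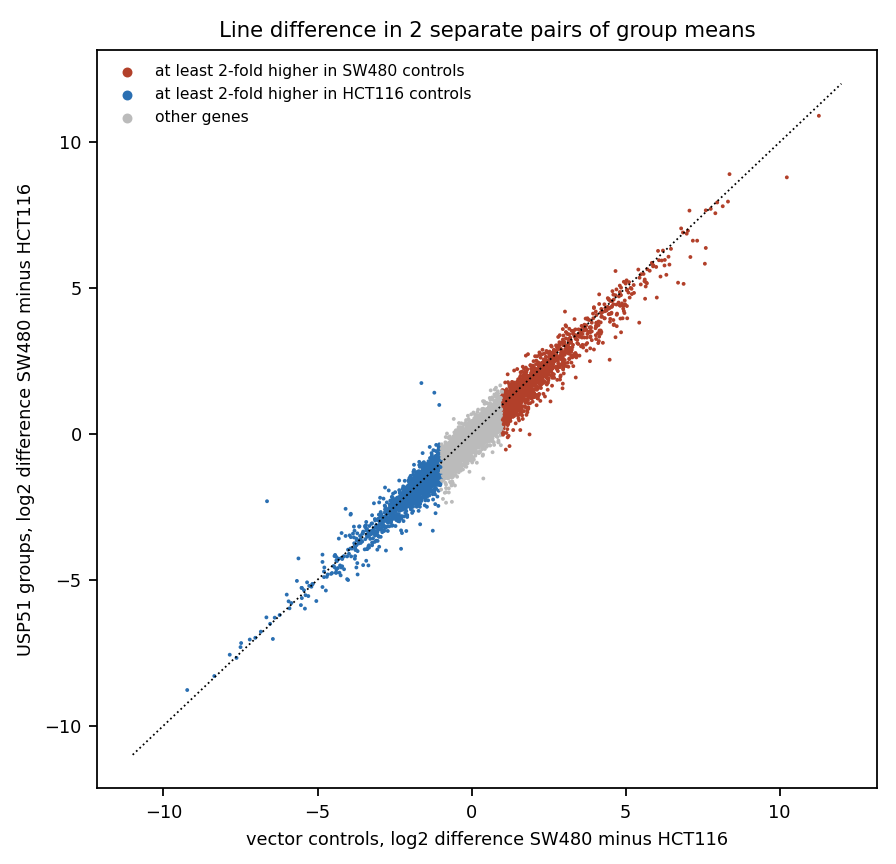
Each point is 1 of 13034 genes, with its log2 difference between SW480 and HCT116 in the vector controls on the x axis and in the USP51 groups on the y axis. The dotted line marks equal differences. Genes at least 4-fold apart in the controls kept their direction and a 2-fold difference in the USP51 groups for 627 of 628 higher in SW480 and 553 of 553 higher in HCT116.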

How the data were processed

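RNA-seq of 12 human cell line libraries in 4 groups of 3 was deposited as 1 table of 84345 RefSeq transcript rows (44726 curated and 39619 predicted). The build hg38, TopHat and DESeq 1.32.0 appear by name, per the submitters' processing notes. What each tool did, how reads were counted and whether strand was used is not given in the sources used here. Per the file headers, the authors gave each group's mean as estimated counts (fractional, not scaled to depth), as TPM values and as FPKM values. The 36 single-library columns carry codes that match no label and were not used. Tests planned with edgeR and DESeq2 on single libraries were therefore not run, and no spread between libraries is known.

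Transcript values were summed per gene, and genes with at least 1 TPM in either control mean were compared as log2((TPM + 1) / (TPM + 1)). For 17672 of 17818 genes, RefSeq's GRCh38.p14 annotation gave a symbol and coordinates. Ratios of counts per total count have 95% exact Clopper-Pearson intervals on rounded means. A mean that rounds to 0 counts was set to a floor of 3 counts in that mean. Both hold for counting error alone, and copies made by PCR are not separate molecules. Gene lists (48, with 1304 genes, 1245 of them found and 985 at 1 TPM) were described by counts and medians. Promoter windows of 300 bases were found for 10598 genes. The script was tested on simulated data. Scaling factors came from edgeR 4.0.16 (R 4.3.3), and other steps from Python 3.11.15 with pandas 2.3.3 and SciPy 1.17.1. Alternatives were scaling factors, CPM, FPKM, pseudocount, filters, curated transcripts, a 4-fold limit and the USP51 groups.

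Genes were named by rule: the 12 largest differences per direction with 10 TPM in the higher line, the 12 most abundant at 0 counts in the other line, up to 6 largest and 2 smallest differences per list at 5 TPM, paralog pairs of a list that differ in opposite directions by 4-fold, the 8 most abundant within 0.1 log2, and a fixed set that included CDKN1A, CDX2, HNF4A, CDH1, VIM, ZEB1, LGR5, AXIN2, EGFR and USP51. Named after their values were seen were APC, B2M, CTNNB1, DSP, FDXR, FN1, GATA6, HIF1A, HOXB6, HOXB13, ID2, LRP6, MDM2, MKI67, MUC2, PMS2, RELB, S100A6, SMAD7 and SNAI2. The genes compared, the lists and the motifs were chosen with earlier results of these data known. Some genes taken by the rule are not reported here.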

Additional observations from a re-analysis of the deposited data

How the results depend on the processing

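The 2-fold counts stayed within 1.5 times of 1741 (higher in SW480) and 1914 (higher in HCT116) under TMM, RLE and upper-quartile factors, CPM, FPKM, a pseudocount of 0.1, no filter, filters at 5 TPM and 20 counts, curated transcripts and the USP51 groups. They ran from 1314 to 2072 and from 1416 to 2332. At 4-fold they were 628 and 553. The share of 2-fold genes that were higher in SW480 was 47.6% in the controls and 39.9% in the USP51 groups. It was 50.6% in CPM with TMM factors, and of 4-fold genes 53.2% were higher in SW480. Which line had more such genes thus depended on the setting. Medians of lists near 0 changed sign between settings, as for the epithelial-mesenchymal transcription factors (0.08, and -0.45 in CPM with TMM factors), WNT ligands and receptors (0.04, and -0.03 in CPM), integrins (0.05, and -0.24 in CPM) and glucose transport (0.30, and -0.01 with curated transcripts). No paired analysis was possible because only group means could be used. Leaving out single libraries, the replicate block and the count tests were not run for the same reason. Ratios that rest on under 10 mean counts in the lower line have wide intervals, and their size is not known beyond these.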
